A study of Sminthopsis crassicaudata with 9 samples.

Results

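The genes described here move calcium in striated muscle fibres or build the postsynaptic side of the neuromuscular junction. They were taken by symbol: the calcium pumps ATP2A1 and ATP2A2, the release channel RYR1, the calcium buffer CASQ1, the membrane repair protein TRIM72, the carbonic anhydrase CA3, the acetylcholine receptor subunits CHRNA1 and CHRND, the receptor kinase MUSK and the receptor anchor RAPSN. Of these 10 symbols 9 have a row in the deposited count table, which holds 21703 gene models, and MUSK is not analysed here. The material was facial tissue of newborn fat-tailed dunnarts (Sminthopsis crassicaudata), a marsupial, within a day of birth, made up of the mandibular, maxillary and fronto-nasal prominences, with tongue, neural tube and eye primordia taken off. Bulk RNA was sequenced in 3 libraries, FP1 to FP3, each a pool of 2 young, and the histone marks H3K4me3 and H3K27ac were profiled by ChIP-seq in 2 replicates, each a pool of 26 or 27 heads with input DNA of the same pool. All samples share 1 tissue, 1 age and no treatment, so no group was compared with another, and the values below are descriptions with their spread between libraries or replicates.

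In a muscle fibre, an electrical signal opens the ryanodine receptor in the membrane of the sarcoplasmic reticulum, calcium flows into the cytoplasm and contraction follows. The fibre relaxes when ATP-driven pumps of the SERCA family (the ATP2A genes) return calcium to the reticulum, where calsequestrin holds it. The signal begins at the neuromuscular junction, where acetylcholine from the motor axon opens a receptor of 5 subunits that rapsyn keeps clustered under the nerve ending. Newborn marsupials attach to a teat soon after birth, which draws on the muscle of mouth and jaw.

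The libraries held between 16096971 and 17419099 counts, and RNA level is given as TPM, which is counts per base of exon scaled to the same total in each library. All 9 genes were expressed, meaning over 1 TPM in all 3 libraries, as were 56.5% of the 21692 gene models with counts. Their summed level was 3407, 3221 and 4161 TPM in FP1, FP2 and FP3. Skeletal muscle was present in all libraries, since 16 of the 20 annotated genes of a list of contractile genes were expressed and summed to 39619, 33325 and 45828 TPM. The members' sum was thus lowest in FP2 and highest in FP3, as was that of the contractile genes. In such bulk tissue, fewer muscle cells and less RNA per muscle cell cannot be told apart. Of 8 annotated neuronal markers 4 were expressed, with sums of 71.2, 84.2 and 93.6 TPM, while the cholinergic genes CHAT, with 1 count or fewer, and SLC18A3 were under 1 TPM in each library.

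CA3, which catalyses hydration of carbon dioxide in muscle, was the highest member, with 1145, 1192 and 1189 TPM (mean 1175 ± 26.3, SD, n = 3), and ranked 133 among all gene models. The SD was 2.24% of the mean for CA3 and 24.9% for ATP2A2. With libraries scaled by TMM, which assumes that most genes do not differ between libraries, it was 12.03% and 35.4%. ATP2A2 had 819.7, 813 and 1227 TPM (953 ± 237) and ATP2A1 had 801, 573 and 911 TPM (762 ± 173). ATP2A2 encodes SERCA2, the pump of heart and slow muscle with a form found in most cells, and ATP2A1 encodes SERCA1, the pump of fast muscle. CA3 exceeded ATP2A2 in FP1 and FP2 but not in FP3, so the order of these genes differed between libraries. ATP2A2 was above ATP2A1 within each library, at ratios of 1.02, 1.42 and 1.35, but their ranges overlapped.

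The next members stood apart from each other in every library. TRIM72, a muscle ubiquitin ligase that gathers vesicles at tears of the fibre membrane, had 283.5, 290.4 and 379 TPM (318 ± 53.1). CASQ1, the calsequestrin of fast muscle, had 167, 166 and 246 TPM (193 ± 45.85). CHRNA1, the subunit that carries the main acetylcholine binding sites, had 84.8, 85.7 and 103 TPM (91.1 ± 10.1). From ATP2A1 downward no member's range reached that of the next in the order of means. RYR1, the release channel, had 51.9, 47.8 and 64.5 TPM (54.7 ± 8.73). The RYR1 model holds 8286 bases of exon on 54.3 kb, lifted from the Tasmanian devil, and a model that misses exons changes a level per length.

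The lowest levels were those of synapse genes. CHRND, the delta subunit of the receptor, had 31.7, 33.3 and 22.7 TPM (29.2 ± 5.69). RAPSN, the anchor, had 21.8, 20.1 and 18.5 TPM (20.2 ± 1.67), which is near the median of 20.6 TPM over expressed genes. CHRND and RAPSN were lowest in FP3, where 6 members were highest, namely ATP2A1, ATP2A2, RYR1, CASQ1, TRIM72 and CHRNA1. Relative to 1000 TPM of contractile genes, CHRND stood at 0.799, 0.999 and 0.496 TPM and ATP2A2 at 20.7, 24.4 and 26.8 TPM in FP1, FP2 and FP3. TMM moved all genes by -0.21 in FP2 and 0.14 in FP3 on the log2 scale. With it CA3 was lowest in FP2 and highest in FP3, RAPSN was lowest in FP2 instead of FP3, and CHRND stayed lowest in FP3, at 25.1 against 32.6 and 28.8.

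**Figure D1:**
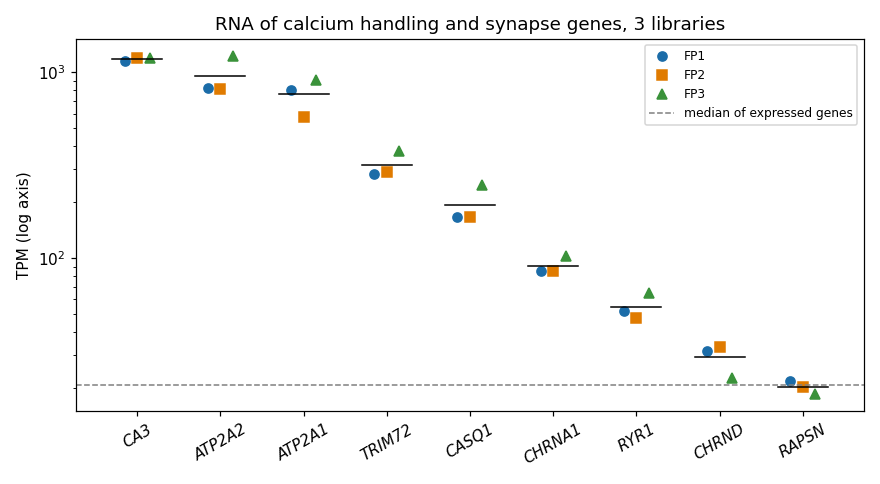
RNA level of the 9 annotated members in TPM on a log axis, with 1 point per library and a bar at the mean of 3 libraries. CA3 and the 2 pumps sit between 573 and 1227 TPM, and RAPSN lies at the dashed line, the median of all expressed genes.

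Partners of these genes filled out the calcium cycle. In a list of 40 calcium handling genes, 33 had a row and 30 of those were expressed, against 56.5% of all models with counts. SLN, the small peptide that inhibits SERCA pumps, was its highest member with 2747, 2136 and 3743 TPM (2875 ± 811). ATP2A1 stood at 0.268 ± 0.0241 and ATP2A2 at 0.336 ± 0.0417 of the SLN level (SD, n = 3). PLN, the inhibitor typical of heart and slow muscle, had 0, 12 and 3 counts, and the third pump gene ATP2A3 had 5.27 ± 1.01 TPM. CALR, a calcium buffer of the endoplasmic reticulum of most cells, had 896 ± 256 TPM, and FKBP1A, which binds the release channel, 364 ± 38.8 TPM.

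CASQ1 was lower than CASQ2, the calsequestrin of heart and slow muscle, in each library. CASQ2 had 244, 226 and 486 TPM, and CASQ1 stood at 0.684, 0.736 and 0.507 of it. Of a cardiac marker list, TNNT2 had 332, 292 and 644 TPM and MYL4 1481, 1320 and 1874 TPM in the same libraries, both genes that developing skeletal muscle also expresses in other mammals. NKX2-5, a transcription factor of heart and pharyngeal muscle on the same list, had 70.3, 73.9 and 163 TPM, and TNNI3, the cardiac troponin I, had 3.36, 1.14 and 1.95 TPM. The other 4 annotated genes of the list were not expressed: MYL7 had no count in any library, NPPA had 3, 0 and 0 counts, NPPB had 2, 0 and 0, and TBX20 had 0.0930, 0.210 and 0.118 TPM. The list summed to 1888, 1687 and 2683 TPM, highest in FP3 like CASQ2, and its part in the level of CASQ2 was not tested.

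RYR1 was above CACNA1S, the voltage sensor that opens it, at ratios of 2.46, 2.098 and 3.54. CACNA1S had 20.7 ± 2.303 TPM and STAC3, an adaptor that couples the pair, 36.1 ± 2.85 TPM. RYR2, the heart channel, was at 0 counts in each library, but its model holds only 370 bases of exon, and 3 counts on it correspond to between 0.894 and 1.09 TPM. RYR3, CACNB1 and DOK7 had no row under these symbols and are not analysed here.

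Of the receptor subunits, CHRNA1 was the highest and CHRNB1, the beta subunit, had 80.2, 84.4 and 71.4 TPM (78.7 ± 6.64). CHRNA1 exceeded CHRNB1 in 3 of 3 libraries, by ratios of 1.06, 1.02 and 1.44, but only in FP3 by more than 10%. CHRND stood at 0.395, 0.395 and 0.318 of CHRNB1. Receptors of fetal muscle hold a gamma subunit, which an epsilon subunit replaces at mature mammalian junctions. CHRNE, the epsilon gene, had 24.6, 30.1 and 14.1 TPM (23.0 ± 8.12) and CHRNG, the gamma gene, 8.14, 8.04 and 5.21 TPM (7.13 ± 1.67). CHRNE was higher than CHRNG in 3 of 3 libraries, at ratios of 3.03, 3.74 and 2.71. Whether the lifted models of both genes cover their transcripts equally was not tested.

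The other synapse genes were present as well. Of 25 listed neuromuscular junction genes, 18 had a row and all 18 were expressed, against 56.5% of all models with counts. The highest was PRKAR1A (370 ± 53.0 TPM), a kinase subunit of many cell types. AGRN, the signal that starts receptor clustering, had 81.5 ± 2.35 TPM and its receptor LRP4 had 32.5 ± 4.18 TPM. The adaptor gene CRK had 76.9 ± 8.82 TPM. ACHE, which breaks acetylcholine down, had 28.9 ± 5.59 TPM, and COLQ, which tethers it in the synaptic cleft, 27.1 ± 1.54 TPM. ACHE was lowest in FP3, at 22.7 TPM against 33.5 and 30.6 TPM in FP1 and FP2, as were CHRND, CHRNB1, CHRNE and CHRNG. With TMM scaling that held for ACHE, CHRND, CHRNE and CHRNG, and CHRNB1 was lowest in FP2, with 82.7, 73.0 and 78.8. Schwann cell genes, which also sit at the junction, summed to 55.4, 57.7 and 38.4 TPM in FP1, FP2 and FP3, so they too were lowest in FP3. Their part in the level of the synapse genes was not tested.

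TRIM72 had partners at higher and lower levels. Of 12 membrane repair genes, 10 had a row and all 10 were expressed, against 56.5% of all models with counts. ANXA2 (2732 ± 677 TPM), CAVIN1 (521 ± 112), ANXA5 (340 ± 65.6), CAPN1 (247 ± 22.8) and BIN1 (206 ± 43.3) were highest. CAV3, the muscle caveolin that TRIM72 binds, had 169 ± 39.4 TPM, and DYSF, the repair protein dysferlin, 36.9 ± 3.89 TPM. CA3 had no close second among the 11 other carbonic anhydrases with a row, out of 15 listed. CA1, CA2, CA13 and CA15 had no row under these symbols and were not compared. Of the 11 others with a row 6 were expressed, against 56.5% of all models with counts. The highest were CA5B (49.4 ± 19.3 TPM), CA11 (45.02 ± 17.5), CA14 (42.1 ± 3.97), CA9 (20.8 ± 5.33) and CA12 (1.67 ± 0.582).

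**Figure D2:**
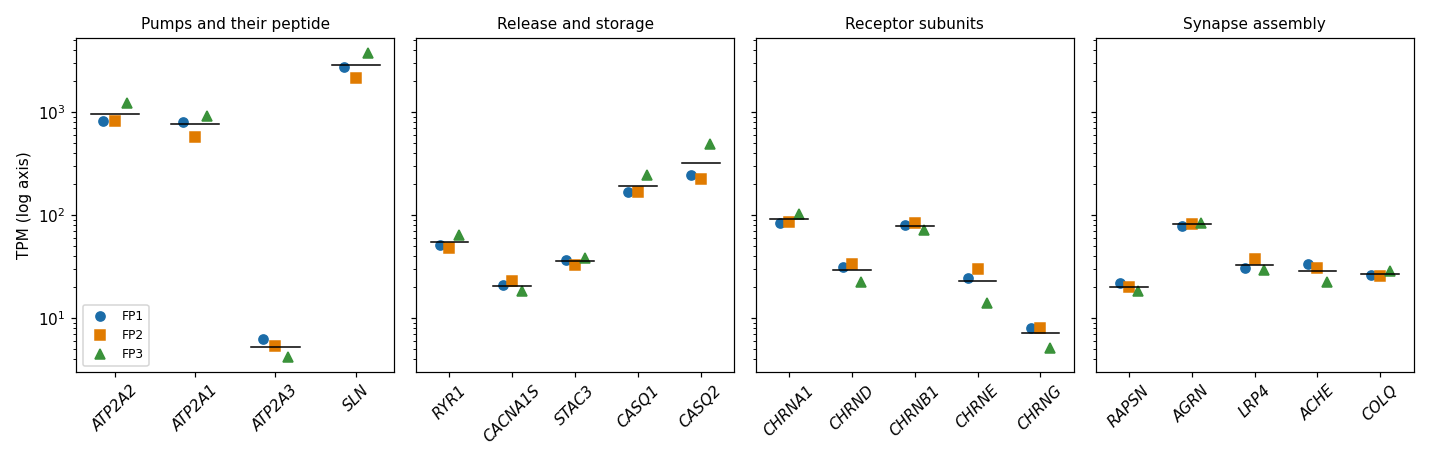
TPM of members and their partners on a log axis, 1 point per library with a bar at the mean. SLN lies above both pumps, CASQ1 below CASQ2, and CHRNG lowest of the 5 receptor subunit genes.

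For the histone marks, a peak was kept at q under 0.05 in both replicates and called reproducible where they shared 50% of either length. Its height is the fold enrichment over input at the summit, given for replicates 1 and 2. A transcription start site (TSS) is the outer end of the first exon of a model, and a peak counts as at the TSS where its edge lies within 1 kb. H3K4me3, the mark of active promoters, was at the TSS of 8 of 9 members, against 67.7% of all gene models and 92.3% of the 6215 models with at least the mean TPM of RAPSN. H3K27ac, found at active promoters and enhancers, was at the TSS of 9 of 9, against 71.5% and 93.2% of those. Both shares of members are close to those of the models with at least the mean TPM of RAPSN, a set not matched to each member's level.

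The members differed more in the height of the promoter mark than in its presence. ATP2A2 (scaffold00002, plus strand, TSS at 93433539 of the study's assembly) had an H3K4me3 peak of 5.20 kb with fold enrichments of 85.8 and 96.1. That mean of 90.9 was higher than at 95.9% of all genes with such a peak. ATP2A1 (scaffold00105, minus strand, TSS at 2453337) had one of 5.82 kb with 25.2 and 26.8, longer than at 89.99% of genes with a peak and higher than at only 32.8%. All others stayed under 13 in both replicates.

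CHRND (scaffold00002, plus strand, TSS at 175929746) had H3K4me3 fold enrichments of 9.35 and 12.4. CA3 (scaffold00050, plus strand, TSS at 3703026) had 7.47 and 9.69 on a peak of 1.44 kb, although its RNA was the highest of the members. CASQ1 (scaffold00020, plus strand, TSS at 4609203) had 4.51 and 7.83, and RYR1 (scaffold00098, minus strand, TSS at 6031415) 5.35 and 4.89, on peaks of 4.42 kb in replicate 1 and 1.09 kb in replicate 2 that do not share 50% of both lengths. CHRNA1 (scaffold00002, minus strand, TSS at 23871067) had the shortest and lowest peak, 383 and 357 bases long with 4.26 and 3.84. RAPSN (scaffold00069, plus strand, TSS at 1087343) had a peak that began 271 bases inside the gene with 4.42 and 6.59. Among the genes at or above RAPSN in TPM, these 6 mean folds were higher than at between 1.33% and 7.04% of those with a peak at the TSS, where the median was 59.6 and the quartiles 41.8 and 75.4. The contractile genes also had low peaks, with a median of 16.6 over the 10 of 20 that had one, and the 10 of 12 myogenic regulators with a peak had a median of 14.4. Medians were higher in the lists of calcium handling (37.9), junction (38.8) and membrane repair genes (59.1), and 16.5 in that of carbonic anhydrases.

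TRIM72 (scaffold00079, plus strand, TSS at 6325434) had no H3K4me3 peak at the TSS. Its nearest began 1.23 kb downstream, inside the gene, with 6.57 and 4.54, so that at a distance of 3 kb all 9 members had the mark. H3K27ac covered the TSS of TRIM72 with 2.97 and 7.30 and was absent from the list at q under 0.001. A second replicate 1 peak, 1.10 kb downstream with 10.96, shares the same broad replicate 2 peak.

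ATP2A2 also had the highest mean H3K27ac at the TSS, with 99.0 and 72.8, which in mean is higher than at 99.6% of genes with a peak. ATP2A1 had 28.3 and 27.5, higher than at 57.6% of all genes with a peak and at 33.7% of those at or above RAPSN in TPM. CASQ1 had 10.2 and 8.07, RYR1 9.54 and 10.4, and CHRNA1 7.99 and 8.06. The peaks over the TSS of CHRND had 12.9 and 14.5, but the replicate 2 peak that shares most bases with that of replicate 1, and enters the mean, has 8.31 and ends 1.13 kb upstream of the TSS. CA3 had its H3K27ac in separate peaks on either side of the TSS, one 0.149 kb upstream with 4.41 and 5.80 and one 0.269 kb inside the gene with 4.93 and 7.21. At RAPSN the replicates differed by more than at any other member, with 73.2 in replicate 1 and 7.31 in replicate 2. The replicate 1 peak is 12.2 kb long and runs through RAPSN over the TSS of PSMC3, a proteasome gene 9.64 kb downstream with 213 ± 20.4 TPM, while the replicate 2 peak ends before it. The value of replicate 2 is therefore the one without a neighbour's promoter.

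Of the 8 members with both marks at the TSS, 3 had the higher mean fold for H3K4me3, namely CA3, ATP2A2 and CHRND at ratios of 1.68, 1.06 and 1.02. With the peak nearest to the TSS in each replicate alone, CA3 was the only one in replicate 1, and CA3 and ATP2A2 were the only ones in replicate 2. By the mean, ATP2A1 was at 0.930, CASQ1 at 0.677, RYR1 at 0.513, CHRNA1 at 0.505 and RAPSN at 0.137, the last set by replicate 1. H3K4me3 was the higher mark at 78.6% of the 14379 gene models with both, with a median ratio of 1.58.

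**Figure D3:**
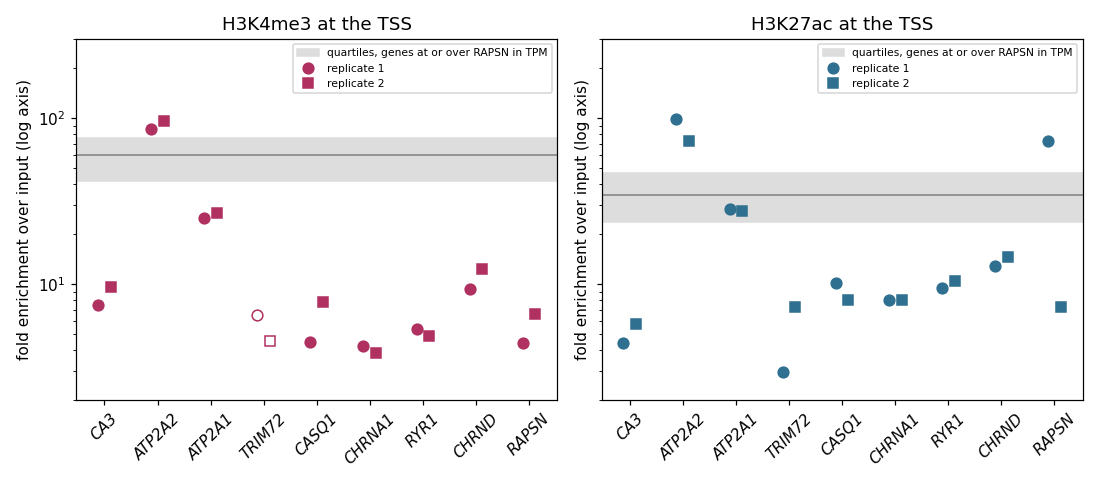
Fold enrichment over input on a log axis for H3K4me3 (left) and H3K27ac (right), 1 point per replicate, of the peak nearest to the TSS. The open points of TRIM72 are of peaks 1.23 kb (replicate 1) and 1.08 kb (replicate 2) away. The band spans the quartiles of genes with a peak at the TSS among the 6215 at or above RAPSN in TPM. For H3K4me3 only ATP2A2 lies above it.

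**Figure D4:**
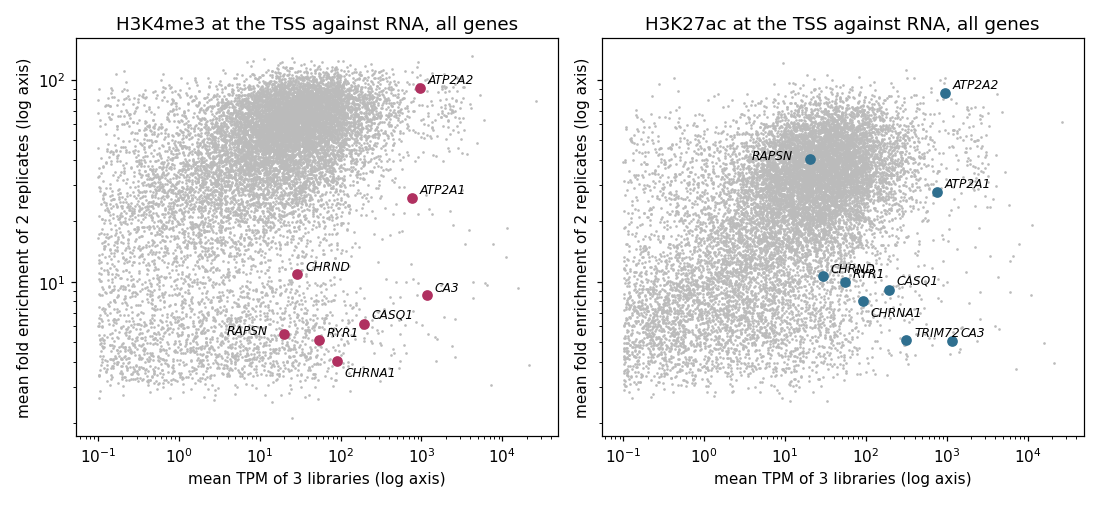
Mean fold enrichment at the TSS of 2 replicates against mean TPM of 3 libraries, both on log axes, for all genes with a peak there (grey) and the members (coloured). CA3, CASQ1 and CHRNA1 lie at the lower right of the H3K4me3 cloud, with high RNA and folds under 10.

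The surroundings of the members ranged from nearly bare to crowded. Within 100 kb of a member's TSS there were 212 reproducible H3K4me3 peaks and 235 H3K27ac peaks in all, of which 49 and 70 had the member as their nearest TSS. A gene model had a median of 8 H3K4me3 peaks (quartiles 4 and 21) and 13 H3K27ac peaks (quartiles 5 and 29) in such a window. Over models at or above RAPSN in TPM the medians were 15 (quartiles 5 and 28) and 22 (quartiles 9 and 34). CA3 had 2 and 4, CHRNA1 3 and 5, TRIM72 7 and 13, and CASQ1 10 and 22. ATP2A2 had 28 and 43, ATP2A1 29 and 30, RAPSN 39 and 24, RYR1 42 and 46, and CHRND 52 and 48. The number of other TSSs in the window was 12 for ATP2A1, 9 for RYR1, 6 for CHRND and TRIM72, 5 for RAPSN and CASQ1, and 1 for ATP2A2, CA3 and CHRNA1, so members with like numbers of neighbours differed in peaks.

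The strongest H3K4me3 peak of a window belonged to another gene for 8 of 9 members, and to the member only at ATP2A2. For ATP2A1 it stood at SH2B1, an adaptor gene 12.7 kb upstream with 84.3 and 93.9, for CASQ1 at PEA15 (64.7 and 80.4), for RYR1 at MAP4K1 (70.3 and 64.6) and for CHRND at EIF4E2 (55.6 and 73.4). For TRIM72 it was at RECK (62.8 and 64.6), for CHRNA1 at WIPF1 (42.2 and 32.7) and for RAPSN at CELF1 (93.8 and 116.8). For CA3 it was at a model without a gene symbol, 61.5 kb downstream (24.8 and 35.6). Mean RNA was lower at the neighbour in 6 of these 8 windows, with SH2B1 at 30.5 ± 6.72 TPM, RECK at 19.7 ± 7.06, PEA15 at 82.8 ± 17.3, WIPF1 at 7.61 ± 2.35, MAP4K1 at 7.63 ± 6.38 and the model near CA3 at 25.6 ± 8.05. EIF4E2, with 54.5 ± 6.57 TPM, was above CHRND in mean, as was CELF1, with 22.6 ± 4.22 TPM, above RAPSN.

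Peaks of H3K27ac that share no base with reproducible H3K4me3, the class taken as candidate enhancers, lay within 100 kb of 9 of 9 members, as they did for 92.0% of all gene models. They numbered 77, of which 28 had the member as the nearest TSS, and 49 remained within 50 kb. The median was 6 per member and 5 over all gene models (quartiles 2 and 10). Over models at or above RAPSN in TPM it was 7 (quartiles 3 and 12). ATP2A2 had 20 of these peaks, 12 nearest to itself, and only 1 other TSS, that of ANAPC7, lies in its window. From 3.78 to 77.3 kb upstream of ATP2A2 there were 10 such peaks nearest to it, none with a fold above 7 in either replicate, and the other 2 lay in the gene 5.23 and 35.2 kb from the TSS. The highest upstream H3K27ac peaks that carry H3K4me3 as well stood 13.7 kb (10.8 and 11.3) and 70.3 kb away (11.1 and 9.72). Lower ones stood 44.6 kb (4.62 and 4.11), 50.4 kb (5.36 and 7.59) and 58.8 kb upstream (7.65 and 5.80). Of the 10 H3K27ac peaks that touch ATP2A2 and are nearest to it, 8 lie wholly in introns.

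RYR1 had 14 such H3K27ac peaks in its window, 5 of them nearest to it. Inside the gene RYR1 carried a chain of H3K27ac peaks of modest height, 13 that have it as their nearest TSS, of which 10 touch an exon, and 10 H3K4me3 peaks likewise, none of either above a fold of 11 in a replicate. The highest of these H3K4me3 peaks, at 24.5 kb into the gene, had 6.47 and 7.83, above the 5.35 and 4.89 at the TSS. CASQ1 had 12 candidate enhancers, 2 nearest to it, one 7.15 kb upstream (4.90 and 4.22) and one 7.46 kb into the gene (5.104 and 7.90).

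CHRNA1 had 2, one 15.0 kb upstream with 6.24 and 9.24 and one 8.35 kb into the gene with 3.24 and 4.64. CA3 had 1, 334 bases long and 42.0 kb upstream, with 3.24 and 4.32. TRIM72 had 6, of which the peak at its TSS and those 5.98 and 7.75 kb upstream are nearest to it. The class was read from the extent of replicate 1 peaks. In replicate 2 the H3K27ac peak at the TSS of TRIM72 also spans the H3K4me3 peak 1.23 kb downstream. RAPSN had 6 with 2 nearest to it, 12.97 and 27.4 kb upstream, and ATP2A1 had 5 with 1, 10.4 kb into the gene. CHRND had 11, and none of them was nearest to it. CHRND instead had a second H3K4me3 peak 4.46 kb into the gene, higher than that at its TSS, with 17.6 and 13.05, and H3K27ac of 12.005 and 8.22 there. CHRNG starts 13.2 kb downstream on the same strand with H3K4me3 of 6.84 in mean.

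**Figure D5:**
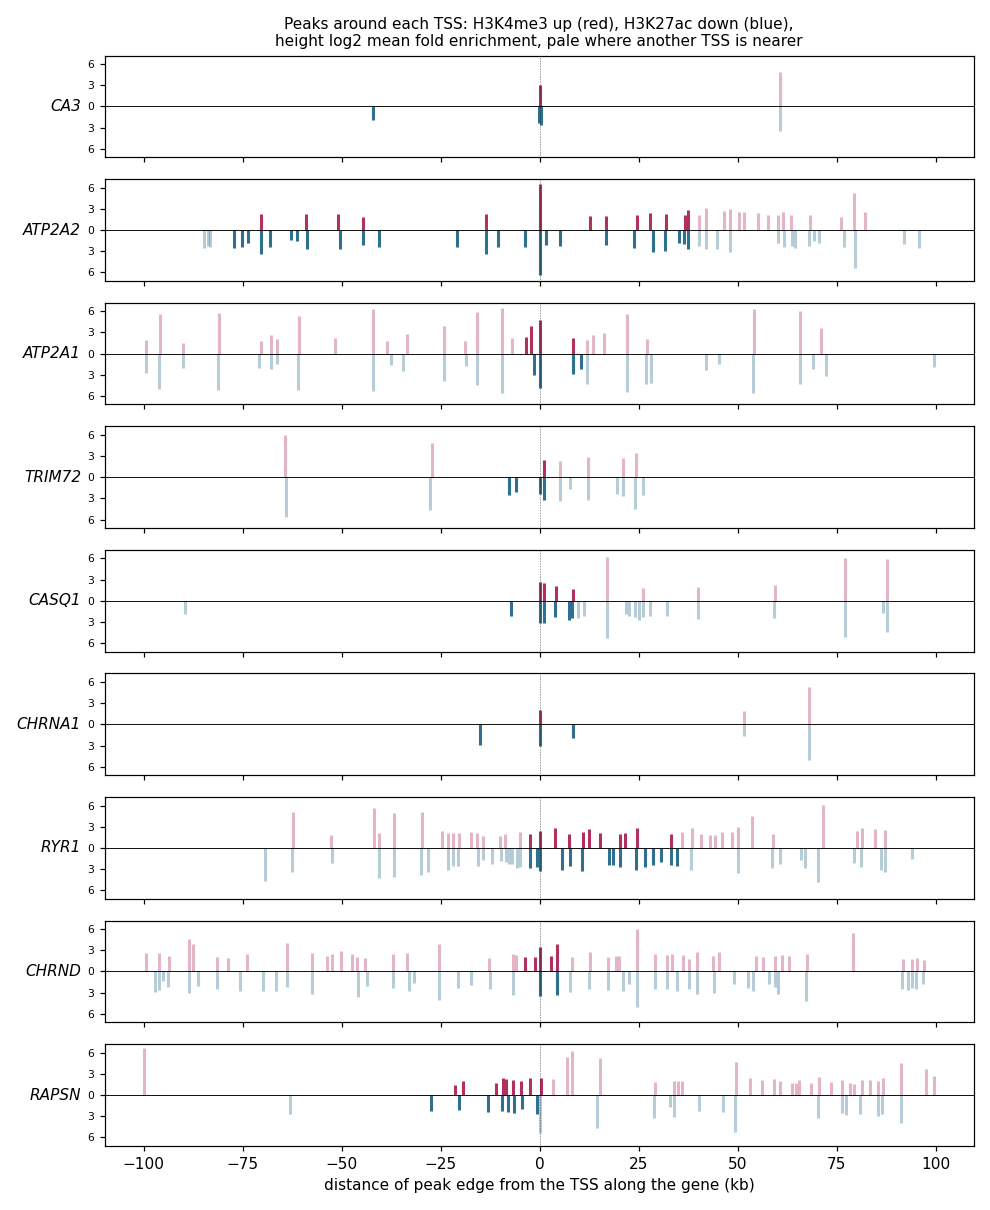
Reproducible peaks within 100 kb of each member's TSS along the gene, H3K4me3 upward and H3K27ac downward, with height as the log2 of the mean fold enrichment and pale bars where another TSS is nearer. The windows of CA3 and CHRNA1 hold 6 and 8 bars, and most tall bars around ATP2A1, CASQ1, RYR1, CHRND and RAPSN are pale.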

How the data were processed

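ChIP reads were trimmed by the authors using cutadapt (1.9.1), mapped by Bowtie2 (2.3.5.1) onto their dunnart assembly and freed of duplicates by Picard (2.23.1), and MACS2 (2.1.1) was run per replicate. The deposited lists give every peak a fold enrichment (a ratio to input) plus a -log10 p-value and a -log10 q-value, down to an unadjusted p of 0.01. The deposited counts per gene come from Trimmomatic (0.39), HISAT2 (2.21) and featureCounts (Subread 2.0.1, stranded), without scaling, beside summed exon lengths. The peak lists give no read totals. The paper reports an average sequencing depth of the ChIP libraries, which was not used here. The devil models were lifted, and 11 that span 2 lines have no counts here.

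TPM, reproducible peaks, windows and nearest TSSs were computed with Python (3.11.15), pandas (2.3.3) and bedtools (2.31.1), and tested on simulated data. R (4.3.3) with edgeR (4.0.16) and DESeq2 (1.42.0) gave the other scalings. A replicate 1 peak takes the fold of the replicate 2 peak it shares most bases with, so a broad partner can be used more than once. The RNA columns carry no replicate number of the labels and are called FP1 to FP3. The spread between libraries or replicates is that of these pools.

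Members and lists were chosen with earlier results of these data known. Named genes are the members, the 5 of highest mean TPM in the calcium handling, junction, membrane repair and carbonic anhydrase lists, a fixed set of paralogs and partners, and the gene nearest to the strongest peak of a window, of which some are not reported here. Markers and contractile genes named beside them were chosen after their values were seen. Listed carbonic anhydrases without a row are named as well.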

Additional observations from a re-analysis of the deposited data

How the results depend on the processing

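The number of expressed members was 9 at over 2 CPM in at least 2 libraries and at over 10 TPM in all 3. Their summed level of 3596 TPM was 3631 with TMM and with DESeq2 size factors, and between 3314 and 3784 with each library left out. Members with H3K4me3 at the TSS numbered between 7 and 9, and those with H3K27ac between 7 and 9, over the other limits on q, overlap, distance and replicates. With 50% of both lengths shared, RYR1 lost H3K4me3 and TRIM72 and CASQ1 lost H3K27ac. The 77 H3K27ac-only peaks fell to 49 in windows of 50 kb and to 28 when only peaks nearest to the member were counted, and lay between 72 and 90 over the other alternatives. For single members, the 54 other values of RNA level came from other scalings or from leaving out 1 library. Such changes can hardly move a mean of 3 libraries beyond its spread. That none did so says little about these levels. Of 36 numbers of peaks, 10 moved by over 1.5 times, all in the smaller window. With 2 replicates, a fold without one is that of the other: 3 of 34 such values moved by over 1.5 times, TRIM72 H3K27ac to 2.97 against 5.13 and RAPSN H3K27ac to 7.31 and 73.2 against 40.3. No paired analysis was possible because there was 1 condition and no test. The comparison of both marks within each replicate was chosen after seeing the data.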

Other observations

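Some genes that are no members, chosen after their values were seen, were lowest in FP3 like most receptor subunits or highest there like the pumps. TNNI1, the inhibitory troponin of slow muscle, had 151, 149 and 63.3 TPM in FP1, FP2 and FP3, and TNNC1, the slow and cardiac troponin C, had 170, 165 and 124 TPM. Other contractile genes were lowest in FP3 too, with ACTN3 at 146, 115 and 108 TPM and MYBPC2 at 126, 106 and 98.1 TPM. With TMM, which multiplied every gene by 0.865 in FP2 and 1.104 in FP3, ACTN3 and MYBPC2 were lowest in FP2 instead. TNNT3 was highest in FP3, with 6360, 4936 and 6928 TPM, as was the sum of the contractile genes. MYF6, a late muscle factor, had 59.7, 78.9 and 118 TPM, while MYMK of the same list of myogenic regulators had 77.2, 80.0 and 43.8 TPM. JSRP1, a junctional protein of the reticulum, had 29.6, 26.7 and 14.7 TPM. Genes of facial mesenchyme summed to 1828, 2413 and 1300 TPM. Whether these libraries differ in muscle type or stage was not tested.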
